A study of Homo sapiens with 12 samples.

Results

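The Mediator complex and its kinase module were followed as 32 genes in RNA-seq of 2 ovarian cancer cell lines treated with THZ1, a covalent inhibitor of CDK7, CDK12 and CDK13, kinases that act on RNA polymerase II and its regulators. The genes were taken by exact symbol. All 32 were listed among 23621 gene rows, and all 32 belonged to the 14251 active genes, those that passed 1 FPKM in any of the 12 libraries. KURAMOCHI (Ku) cells, grown in RPMI, and COV362 (Cov) cells, grown in DMEM, were both labelled as untransduced controls. Each line received DMSO, the vehicle, or THZ1 at 50 nM or 250 nM for 6 hr, with 2 biological replicates per condition. FPKM, a read measure corrected for transcript length and library size, had been rescaled by the authors so that synthetic ERCC RNAs, added to RNA normalized by cell count, were level between libraries. The values therefore compare RNA per cell between doses of 1 line, and since the tables of the lines had been normalized separately, lines are set side by side without a test.

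Mediator is the large assembly that carries signals from transcription factors at enhancers to RNA polymerase II at promoters. Its core is built of a head and a middle module that contact the polymerase, a tail module that is the main docking site for transcription factors, and MED14, the backbone that joins them. A separate kinase module, made of CDK8 or its paralog CDK19, cyclin C (CCNC), MED12 and MED13 or its paralog MED13L, binds the core reversibly and keeps it from engaging the polymerase.

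The promoters of 4 members from the upper and lower end of the response are shown first, in lower case from 250 bases before to 50 bases after the start, with the motifs found by a letter search in capitals. The windows come from RefSeq on GRCh38.p14, where 24 of the 32 members had an entry. MED17 and MED18 encode head subunits that fell in both lines. MED26 encodes the subunit that recruits elongation factors, and MED24 a tail subunit that kept the largest share of its RNA. The MED17 window is chr11:93784032-93784331 on the plus strand, the MED18 window chr1:28328790-28329089 on the plus strand, the MED26 window chr19:16628155-16628454 on the minus strand and the MED24 window chr17:40054359-40054658 on the minus strand.
MED17: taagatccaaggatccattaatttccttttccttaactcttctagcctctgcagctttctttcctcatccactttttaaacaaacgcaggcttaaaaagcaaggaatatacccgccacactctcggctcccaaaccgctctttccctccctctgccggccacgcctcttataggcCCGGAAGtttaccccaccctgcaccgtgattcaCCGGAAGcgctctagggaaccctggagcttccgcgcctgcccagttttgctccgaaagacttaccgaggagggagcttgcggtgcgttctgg
MED18: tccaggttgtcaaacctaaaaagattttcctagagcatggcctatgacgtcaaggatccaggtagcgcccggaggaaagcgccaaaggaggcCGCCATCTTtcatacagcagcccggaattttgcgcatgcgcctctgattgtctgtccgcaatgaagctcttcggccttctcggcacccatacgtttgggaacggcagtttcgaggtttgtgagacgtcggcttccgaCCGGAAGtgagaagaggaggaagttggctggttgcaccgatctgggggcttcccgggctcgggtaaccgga
MED26: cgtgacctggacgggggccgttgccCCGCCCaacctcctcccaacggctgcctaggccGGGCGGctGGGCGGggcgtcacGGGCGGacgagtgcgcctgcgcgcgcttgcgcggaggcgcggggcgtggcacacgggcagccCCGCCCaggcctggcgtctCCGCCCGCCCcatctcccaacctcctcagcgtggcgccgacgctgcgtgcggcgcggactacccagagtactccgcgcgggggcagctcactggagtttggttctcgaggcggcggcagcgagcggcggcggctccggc
MED24: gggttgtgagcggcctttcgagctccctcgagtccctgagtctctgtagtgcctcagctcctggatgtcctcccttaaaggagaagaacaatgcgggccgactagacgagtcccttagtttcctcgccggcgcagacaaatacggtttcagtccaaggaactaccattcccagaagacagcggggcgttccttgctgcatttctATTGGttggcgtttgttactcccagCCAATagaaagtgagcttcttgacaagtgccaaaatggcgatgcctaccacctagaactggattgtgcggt

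Capitals mark an ETS motif (CCGGAAG) in 2 places of the MED17 window. In MED18 they mark a motif of YY1 (AAGATGGCG, found on the other strand) and an ETS motif, in that order. In MED26 they mark 7 GC boxes (GGGCGG on either strand, of which 2 on the other strand overlap), and in MED24 a CCAAT box on each strand. Both strands were searched. The ETS motif was found in 7 of the 24 members with a window and in 18.59% of 10050 active genes with one, and the GC box in 15 members and 69.91% of those genes. The CCAAT box was found in 9 members (36.56%), the YY1 motif in 4 (3.89%) and an E-box (CACGTG) in 2 (10.22%). A TATA box (TATAAA) was found in MED7 and MED16, against 5.57% of active genes. These are matches of letters and not measured binding. GC content was 77.3% in the MED26 window and between 53.3% and 56.3% in the other 3, against a median of 57.5% in the 24 members and 65.3% in active genes.

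Markers of the labelled cell type were mostly present. Of 10 genes marking serous ovarian carcinoma or epithelial cells, 9 were above 1 FPKM in both DMSO libraries of each line. PAX8 was at 139.97 and 132.2 in Ku and 120.3 and 127.9 in Cov. The exceptions were MUC16 in Ku (0.172 and 0.159) and WT1 in Cov (0.565 and 0.741). In Ku EPCAM (4.01 and 4.24) and KRT7 (4.68 and 4.54) passed 1 FPKM but lay below the endothelial marker CDH5 (8.67 and 7.79). Of 11 markers of immune, endothelial and stromal cells, 4 in Ku and 3 in Cov passed 1 FPKM, with mean levels up to 8.23 in Ku (CDH5) and 42.2 in Cov (COL1A2), and their part in the results was not tested. The tables hold no zeros, and unexpressed genes share a floor of 0.0783 to 0.119 FPKM, at which CD3E lay in both lines. Between replicates Pearson's r across active genes was 0.968 to 0.983 on the log2 scale, and the FPKM of all genes summed to between 607016 and 1234310 in Ku libraries and between 758681 and 1686570 in Cov libraries, lowest at 250 nM. Read counts were not used here, so depth is unknown and no counting interval is given.

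In untreated cells the members spanned a broad range of RNA levels. Their median FPKM in DMSO was 21.1 in Ku, from 4.88 for MED26 to 137 for MED21, and 26.5 in Cov, from 4.12 for CDK19 to 68.6 for MED10. MED21, a middle subunit at the hinge of the complex, stood first in Ku at 139.6 and 133.5, well above MED10 (62.3 and 59.7), which was next. In Cov MED21 was at 26.8 and 28.0, and MED10 led at 65.9 and 71.4, followed by MED8 (51.3 and 60.1) and MED28 (50.7 and 58.5), which overlapped each other. CDK19, MED9 and MED12, at the low end in Ku, also overlapped between libraries, whereas both MED26 libraries (5.18 and 4.58) lay below them.

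At 250 nM nearly all of the complex was lowered on the spike-in scale. Changes are given on the log2(FPKM + 1) scale, which understates those of genes near the floor. They were tested with limma across all active genes, and a call needed both a Benjamini-Hochberg adjusted p under 0.001 and a change of more than 0.5 on the log2 scale. In Ku 31 of 32 members were called lower, where 68.6% of active genes were, and in Cov all 32 were, where 84% of active genes were. The member not called, MED14 in Ku, also had both treated libraries below both DMSO libraries, as did all 32 members in each line and 95.9% (Ku) and 95.6% (Cov) of active genes. No member was called higher in either line by limma, none was higher at an unadjusted p under 0.05 (0.182% of active genes in Ku and 0.309% in Cov were), and 0.0491% (Ku) and 0.105% (Cov) of active genes were called higher. The median log2 fold change of the members was -1.701 in Ku and -1.92 in Cov, against -1.11 and -1.31 over all active genes, and 26 and 29 members lay below the median of active genes. As a share of the DMSO mean, the median member kept 28.9% of its RNA in Ku and 22.9% in Cov, and the median active gene 36.3% and 33.0%. Fewer cells of one kind and less RNA per cell cannot be told apart in such bulk libraries. With 2 libraries against 2, an exact permutation test of 1 gene cannot give a p under 0.33, so these tests rest on the spread pooled by limma.

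Most genes fell, and many of the directions given here depend on the scale. Scaling each library to an equal median of active genes moved the median log2 fold change of all active genes at 250 nM from -1.11 to 0.29 in Ku and from -1.31 to 0.31 in Cov, and scaling by the median of ratios moved it to -0.00088 and 0.011. The member median relative to that of all active genes was -0.59 on the spike-in scale, -0.10 under equal medians and -0.32 under the median of ratios in Ku, and -0.61, -0.36 and -0.49 in Cov. On the spike-in scale this distance also moved with the pseudocount and the genes compared. It was -0.39 in Ku and -0.56 in Cov with a pseudocount of 0.1, and -1.201 and -1.22 with no minimum FPKM. Among genes above 10 FPKM in at least 1 library it was -0.41 and -0.42, with 22 and 23 of 30 members below the median of those genes. Under equal medians 7 members in each line were called lower (11.6% of active genes in Ku, 11.3% in Cov) and 4 higher (26.9% and 26.4%). Under the median of ratios 10 in Ku and 11 in Cov were lower (19% and 18.9%) and 1 in each line higher (11.1% and 8.57%). The 6 members MED7, MED8, MED9, MED17, MED18 and MED26 were called lower in both lines on all 3 scales, as were 6.91% of active genes. MED24 was called lower in both lines on the spike-in scale and higher in both under either rescaling, as were 2.14% of active genes. MED9 and MED18 are named here because their values were seen.

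**Figure D1:**
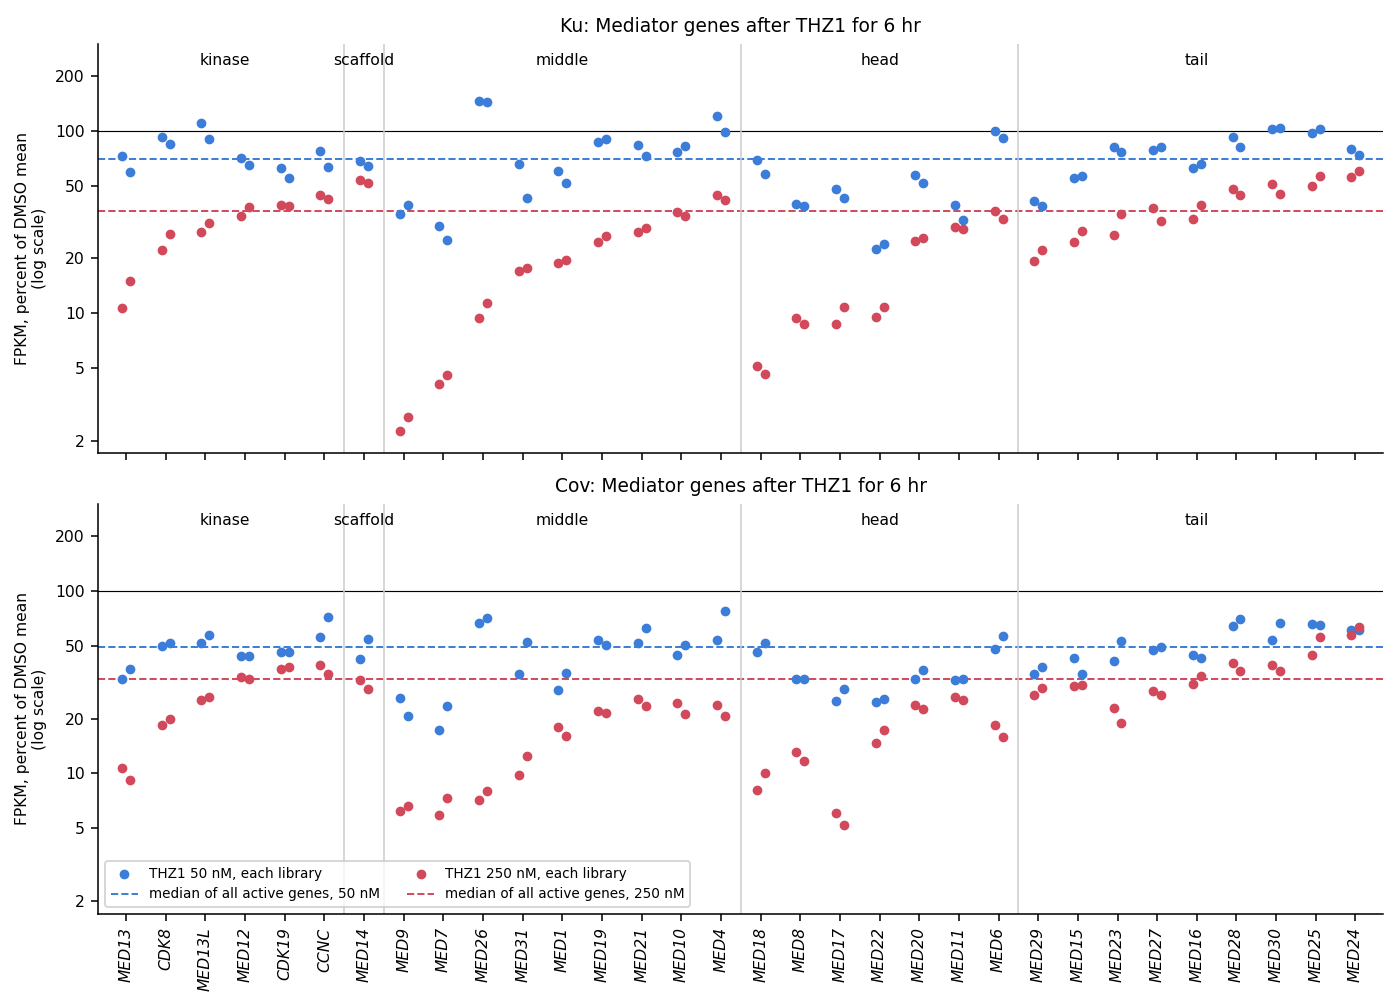
FPKM of each of the 32 members after THZ1 for 6 hr, as a percent of the mean of the 2 DMSO libraries of the same line (log scale), with 1 point per library, genes grouped by module and dashed lines at the median of all active genes. At 250 nM on the spike-in scale every point lies below 100%, from 2.48% (mean of MED9 in Ku) to 60.3% (mean of MED24 in Cov), and the highest points at 50 nM are those of MED26 in Ku (mean 144%). Under scaling to equal medians the median change of the members at 250 nM turned positive in Ku (0.19) and was -0.046 in Cov.

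The modules differed in their medians, which were not tested against each other. On the spike-in scale at 250 nM, the median log2 fold change in Ku was -2.83 for the 7 head subunits, -1.93 for the 9 middle subunits, -1.36 for the 9 tail subunits and -1.35 for the 6 kinase module genes, and in Cov it was -2.41, -2.07, -1.45 and -1.48. Under equal medians the tail and kinase module medians turned positive in both lines (0.47 and 0.32 in Ku, 0.41 and 0.27 in Cov), whereas the head and middle medians stayed negative. All 7 head subunits and all 9 middle subunits lay below the median of active genes in each line. Of the 9 tail subunits 5 (Ku) and 7 (Cov) did, and of the 6 kinase module genes 5 did in each line. Some models place MED27 to MED30 in the head. Counted there, they brought the head median to -1.79 in Ku and -1.96 in Cov and left that of the tail at -1.36 and -1.45.

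The 6 kinase module genes were all called lower at 250 nM in both lines on the spike-in scale, where 68.6% (Ku) and 84% (Cov) of active genes were. Under equal medians none of them was called lower in Ku and only MED13 in Cov, and under the median of ratios MED13 was in Ku and MED13 and CDK8 in Cov. CDK8, the Mediator kinase, stood in Ku at 19.1 and 14.5 FPKM in DMSO, 15.5 and 14.2 at 50 nM, and 3.75 and 4.58 at 250 nM. Cov had 11.3 and 13.3 in DMSO, 6.16 and 6.36 at 50 nM, and 2.26 and 2.45 at 250 nM. The 250 nM libraries were thus apart from DMSO in both lines, whereas the 50 nM libraries overlapped DMSO in Ku. At 250 nM the change of this gene on the log2 scale was -1.78 (standard error 0.16, limma adjusted p = 9.3e-05) in Ku and -1.98 (0.11, adjusted p = 2.4e-06) in Cov. Under equal medians it was -0.019 in Ku and -0.25 in Cov (limma adjusted p = 0.85 and 0.035) and under the median of ratios -0.49 and -0.64 (0.0074 and 0.00096), of which only the last was called. At 50 nM it was -0.16 in Ku (limma adjusted p = 0.44, not called) and -0.87 in Cov (adjusted p = 0.00023), and both turned positive under either rescaling. Without DMSO replicate 2 the call in Cov at 50 nM was lost (adjusted p = 0.0027).

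CDK19, the paralog that can take the place of CDK8, was called lower on the spike-in scale at 250 nM in both lines and at 50 nM in Cov. In Ku it was at 8.18 and 6.17 FPKM in DMSO, 4.49 and 3.93 at 50 nM, and 2.82 and 2.79 at 250 nM. In Cov it was at 4.08 and 4.15, then 1.91 and 1.92, then 1.54 and 1.59. The change at 250 nM on the log2 scale was -1.09 (standard error 0.16, limma adjusted p = 0.00082) in Ku and -0.997 (0.09, adjusted p = 1.7e-05) in Cov, and both turned positive under either rescaling. At 50 nM it was -0.64 in Ku (limma adjusted p = 0.017, not called; -0.041 under equal medians) and -0.81 in Cov (adjusted p = 9.9e-05). The call in Ku at 250 nM was lost, at adjusted p from 0.0019 to 0.0067, without DMSO replicate 1, either 50 nM library or either 250 nM library. The call in Cov at 50 nM, which turned positive under equal medians (0.080), was lost without DMSO replicate 2 (adjusted p = 0.0013).

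**Figure D2:**
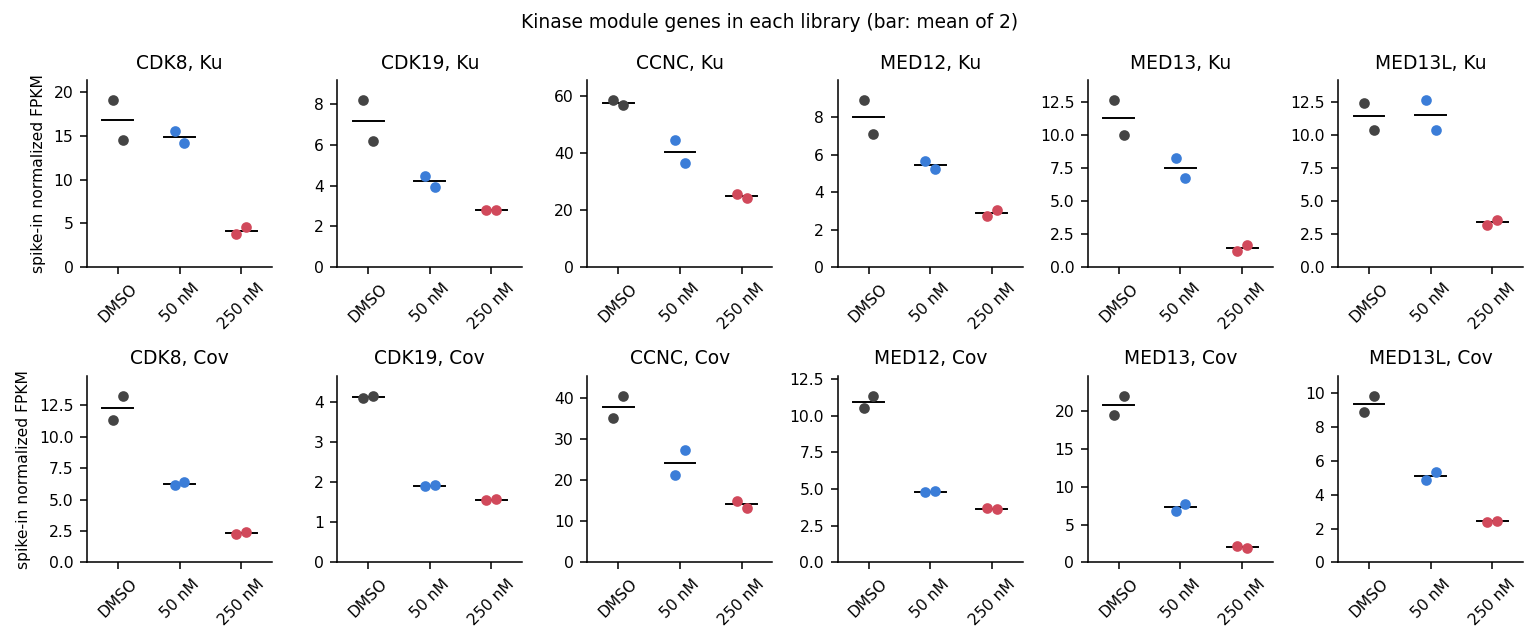
Spike-in normalized FPKM of the 6 kinase module genes in each library, Ku above and Cov below, with DMSO, 50 nM and 250 nM THZ1 on the x axis, 1 point per library and a bar at the mean of 2. Both 250 nM libraries lie below both DMSO libraries for all 6 genes in both lines on this scale, whereas the median of the 6 genes turned positive under equal medians, and in Ku MED13L and CDK8 overlap DMSO at 50 nM.

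The balance of the paralogs, a ratio within a library that no rescaling changes, shifted with dose. CDK8 over CDK19 was 2.33 and 2.35 in the DMSO libraries of Ku, 3.45 and 3.603 at 50 nM, and 1.33 and 1.64 at 250 nM. The Cov libraries had 2.77 and 3.19, then 3.23 and 3.32, then 1.46 and 1.55. The ratio was thus highest at 50 nM and lowest at 250 nM in both lines, with no overlap between the doses of a line, although DMSO and 50 nM came close in Cov. No test was run on the ratios.

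MED13 and MED13L, the paralogs that tether the kinase module to the core, were both called lower at 250 nM on the spike-in scale. MED13 in Ku was at 12.6 and 9.95 FPKM in DMSO, 8.23 and 6.73 at 50 nM, and 1.203 and 1.699 at 250 nM, while in Cov it was at 19.5 and 22.0, then 6.85 and 7.76, then 2.22 and 1.92. MED13L was at 12.4 and 10.4, then 12.6 and 10.3, then 3.18 and 3.57 in Ku, and at 8.90 and 9.86, then 4.85 and 5.36, then 2.38 and 2.47 in Cov. At 50 nM in Ku MED13L thus covered the same range as in DMSO, and the 2 genes began at a like level in that line. The log2 fold change of MED13 at 250 nM was -2.32 (standard error 0.18, limma adjusted p = 5.5e-05) in Ku and -2.82 (0.12, adjusted p = 1.0e-06) in Cov. It was called lower under both rescalings in Cov and under the median of ratios in Ku, but not under equal medians in Ku (-0.80, limma adjusted p = 0.0017). That of MED13L was -1.499 (0.15, limma adjusted p = 0.00014) in Ku and -1.60 (0.10, adjusted p = 4.6e-06) in Cov, and turned positive in both under equal medians. Without either 250 nM library of Ku the call of MED13L was lost, at adjusted p = 0.0015 without replicate 1 and 0.0011 without replicate 2. At 50 nM MED13 changed by -0.53 in Ku (limma adjusted p = 0.050, not called) and -1.39 in Cov (adjusted p = 4.2e-05), and MED13L by 0.0078 in Ku (adjusted p = 0.97) and -0.77 in Cov (adjusted p = 0.00031). The last call was lost without DMSO replicate 1 (0.0017) or 2 (0.0041) and turned positive under either rescaling, as MED13 in Ku did under equal medians (0.10).

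The ratio of MED13 to MED13L fell at each step in both lines. It was 1.02 and 0.957 in DMSO, 0.653 and 0.652 at 50 nM, and 0.378 and 0.476 at 250 nM in Ku. For Cov the values were 2.19 and 2.23, then 1.41 and 1.45, then 0.934 and 0.776. No library of one dose reached the range of another within its line, and Cov went from more MED13 than MED13L to less.

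Cyclin C, which activates CDK8 and CDK19, and MED12, which links the cyclin and kinase to MED13, complete the module. CCNC was at 58.5 and 56.8 FPKM in DMSO, 44.5 and 36.5 at 50 nM, and 25.6 and 24.3 at 250 nM in Ku, and at 35.0 and 40.5, then 21.1 and 27.4, then 14.9 and 13.2 in Cov. MED12 was at 8.89 and 7.09, then 5.65 and 5.21, then 2.73 and 3.05 in Ku, and at 10.5 and 11.4, then 4.79 and 4.84, then 3.69 and 3.62 in Cov. For both genes each step lowered both libraries in both lines. CCNC changed at 250 nM by -1.18 (standard error 0.10, limma adjusted p = 7.9e-05) in Ku and -1.36 (0.14, adjusted p = 5.1e-05) in Cov. MED12 changed by -1.203 (0.15, limma adjusted p = 0.00036) and -1.36 (0.09, adjusted p = 6.4e-06), which relative to the median of active genes was -0.095 in Ku and -0.049 in Cov. Both genes turned positive under equal medians in both lines. In Ku the call of MED12 was lost, at adjusted p from 0.0010 to 0.0040, without DMSO replicate 1, either 50 nM library or either 250 nM library.

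**Figure D3:**
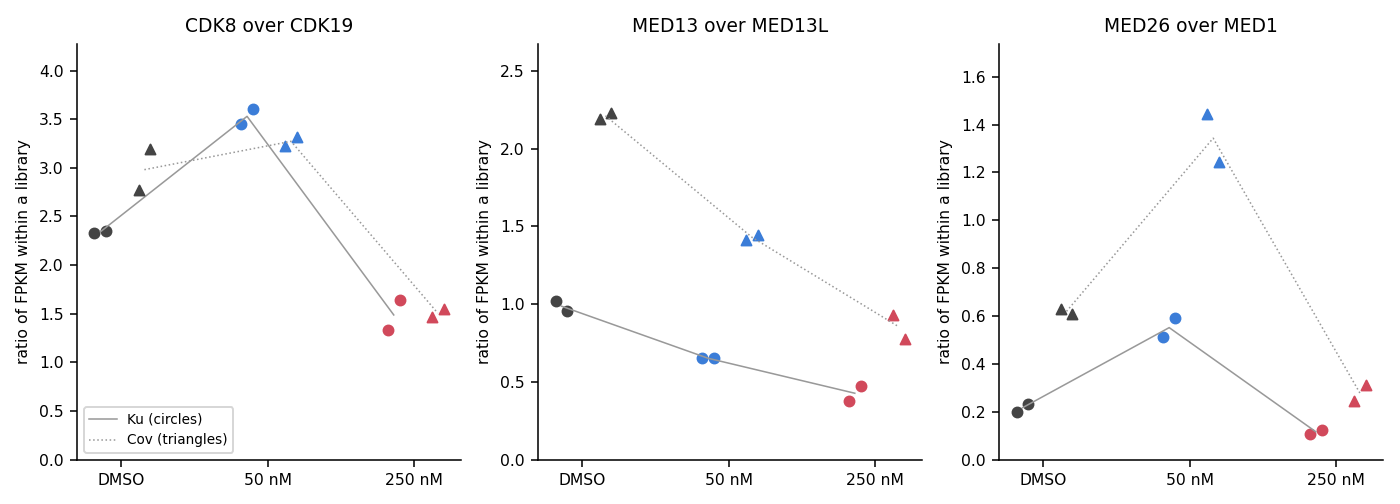
Ratios of FPKM within each library against DMSO, 50 nM and 250 nM THZ1 for 3 pairs of members, Ku as circles and Cov as triangles, with a line through the means of 2. CDK8 over CDK19 and MED26 over MED1 are highest at 50 nM and lowest at 250 nM in both lines, and MED13 over MED13L falls at each step. These ratios are the same on all 3 scales.

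MED14, the backbone of the complex, was the least lowered gene outside the tail in Ku. It was at 10.9 and 8.95 FPKM in DMSO, 6.74 and 6.38 at 50 nM, and 5.29 and 5.13 at 250 nM there. In Cov it was at 25.1 and 28.4, then 11.3 and 14.5, then 8.72 and 7.72. Each step lowered both libraries in both lines, and the share left at 250 nM was 52.6% in Ku and 30.8% in Cov. The log2 fold change was -0.81 in Ku (standard error 0.13, limma adjusted p = 0.0013, not called) and -1.59 in Cov (0.14, adjusted p = 1.8e-05). The call in Ku was made with a pseudocount of 0.1 (limma adjusted p = 0.00077), with genes above 10 FPKM (0.00078) and without the variance trend (0.00080). In Ku the change turned positive under both rescalings, and in Cov under equal medians only. The difference between the lines was not tested.

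The head module, which contacts the polymerase, lost most of its RNA at 250 nM on the spike-in scale. MED17, its largest subunit, was at 22.3 and 18.2 FPKM in DMSO, 9.75 and 8.67 at 50 nM, and 1.77 and 2.20 at 250 nM in Ku, and at 29.5 and 30.7, then 7.56 and 8.70, then 1.82 and 1.58 in Cov. MED8 was at 58.3 and 52.1, then 21.8 and 21.3, then 5.23 and 4.80 in Ku, and at 51.3 and 60.1, then 18.3 and 18.4, then 7.31 and 6.50 in Cov. For both genes each dose was set apart from the next in both lines. MED17 changed by -2.83 (standard error 0.15, limma adjusted p = 1.6e-05) in Ku and -3.53 (0.11, adjusted p = 8.2e-07) in Cov, and MED8 by -3.22 (0.09, adjusted p = 6.5e-06) and -2.84 (0.11, adjusted p = 9.1e-07). MED18, whose promoter is shown above, kept 4.87% of its DMSO mean in Ku and 9.11% in Cov. These 3 genes were called lower on all 3 scales in both lines. MED17 shares exon bases with another coding gene model on the same strand and with TAF1D on the other, so its values are uncertain to that extent.

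Of the other head subunits, MED6 and MED11 differed in the dose at which they fell. MED6 was at 32.9 and 27.9 FPKM in DMSO, 30.3 and 27.7 at 50 nM, and 11.02 and 10.0 at 250 nM in Ku, and at 45.3 and 50.9, then 23.0 and 27.3, then 8.88 and 7.65 in Cov. Its 50 nM libraries overlapped DMSO in Ku. MED11 was at 34.4 and 28.8, then 12.4 and 10.2, then 9.41 and 9.09 in Ku, and at 22.6 and 23.6, then 7.49 and 7.58, then 6.02 and 5.86 in Cov. Nearly all of the fall of MED11 was present at 50 nM. At 250 nM MED6 changed by -1.45 (standard error 0.11, limma adjusted p = 4.7e-05) in Ku and -2.41 (0.12, adjusted p = 1.7e-06) in Cov, and MED11 by -1.66 (0.13, adjusted p = 5.5e-05) and -1.79 (0.09, adjusted p = 1.5e-06). Under equal medians MED11 turned positive in both lines and MED6 in Ku.

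In the middle module MED7, which pairs with MED21 at the hinge, fell most in both lines by its log2 fold change. In Ku MED7 was at 21.0 and 20.4 FPKM in DMSO, 6.21 and 5.20 at 50 nM, and 0.844 and 0.946 at 250 nM. The Cov libraries had 29.7 and 31.3, then 5.25 and 7.15, then 1.80 and 2.23. At 250 nM 4.32% and 6.61% of its DMSO mean were left. The log2 fold change was -3.52 (standard error 0.13, limma adjusted p = 7.7e-06) in Ku and -3.39 (0.15, adjusted p = 1.1e-06) in Cov. MED7 lies on GRCh37 at chr5:156564435-156586030 on the minus strand and has 2 exons, and it shares exon bases with HAVCR2 on the same strand, where reads could count for either. MED9, another gene of 2 exons, kept 2.48% in Ku, where its libraries (0.160 and 0.190) came near the floor, and 6.42% in Cov.

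MED21, the partner of MED7, kept 28.6% (Ku) and 24.6% (Cov) of its DMSO mean at 250 nM. It went from 139.6 and 133.5 FPKM to 114.3 and 99.6 at 50 nM and 38.3 and 39.8 at 250 nM in Ku, and from 26.8 and 28.0 to 14.3 and 17.3 and then 7.04 and 6.44 in Cov. At 250 nM the change of this gene on the log2 scale was -1.78 (standard error 0.08, limma adjusted p = 1.1e-05) in Ku and -1.88 (0.11, adjusted p = 3.2e-06) in Cov, and turned positive in both under equal medians. MED4 was at 39.5 and 36.0, then 45.2 and 37.0, then 16.7 and 15.8 in Ku, and at 24.7 and 27.8, then 14.1 and 20.5, then 6.21 and 5.40 in Cov. Its 50 nM libraries overlapped DMSO in Ku and lay below DMSO in Cov. At 250 nM MED4 changed by -1.16 (0.11, limma adjusted p = 0.00012) in Ku and -2.00 (0.17, adjusted p = 1.8e-05) in Cov, and turned positive under both rescalings in Ku. Without DMSO replicate 1 or either 250 nM library its call in Ku was lost, at adjusted p from 0.0010 to 0.0012.

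MED26 was the only member whose libraries at 50 nM both lay above both DMSO libraries in Ku, an order found for 3.45% of active genes there. In Cov no member had it, against 0.674% of active genes. MED26 joins the core in the form without the kinase module and recruits the super elongation complex. In Ku it was at 5.18 and 4.58 FPKM in DMSO, 7.07 and 6.99 at 50 nM, and 0.458 and 0.557 at 250 nM. For Cov the values were 11.8 and 12.6, then 8.17 and 8.68, then 0.873 and 0.980. The 50 nM level was thus 144% of DMSO in Ku and 68.9% in Cov, and at 250 nM 10.4% and 7.58% were left. At 50 nM the log2 fold change was 0.45 (standard error 0.12, limma adjusted p = 0.023) in Ku and -0.49 (0.10, adjusted p = 0.0022) in Cov, and neither was called. The value in Cov turned positive under either rescaling (0.60 and 0.44), and that in Ku stayed positive (0.99 and 0.89). Relative to the median of active genes MED26 at 50 nM stood 0.85 higher in Ku and 0.36 higher in Cov. At 250 nM the change was -1.96 (0.12, limma adjusted p = 2.4e-05) and -2.78 (0.10, adjusted p = 8.2e-07), called lower on all 3 scales, and from 50 nM to 250 nM it was -2.41 and -2.29.

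MED1, the subunit that binds nuclear receptors, offers a comparison from the same module. It was at 25.9 and 19.6 FPKM in DMSO, 13.8 and 11.8 at 50 nM, and 4.29 and 4.45 at 250 nM in Ku, and at 18.8 and 20.7, then 5.66 and 6.99, then 3.54 and 3.16 in Cov. It fell at each step, with log2 fold changes at 250 nM of -2.13 (standard error 0.16, limma adjusted p = 4.1e-05) and -2.25 (0.12, adjusted p = 2.3e-06). Under equal medians the change was -0.35 in Ku and -0.43 in Cov (limma adjusted p = 0.013 and 0.0041), not called in either line, and under the median of ratios it was called lower in both. MED26 over MED1 within a library was 0.200 and 0.234 in DMSO, 0.513 and 0.590 at 50 nM, and 0.107 and 0.125 at 250 nM in Ku. In Cov it was 0.631 and 0.608, then 1.44 and 1.24, then 0.247 and 0.310. In both lines the ratio was thus highest at 50 nM and lowest at 250 nM, without overlap. Its rise at 50 nM holds the fall of MED1 as well as the change of MED26. Ratios to other middle subunits were not computed, and MED4, for one, kept 109.0% in Ku and 65.9% in Cov at that dose. MED26 lies on GRCh37 at chr19:16685718-16739873 on the minus strand, where 2 other coding gene models share exon bases with it on the same strand.

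**Figure D4:**
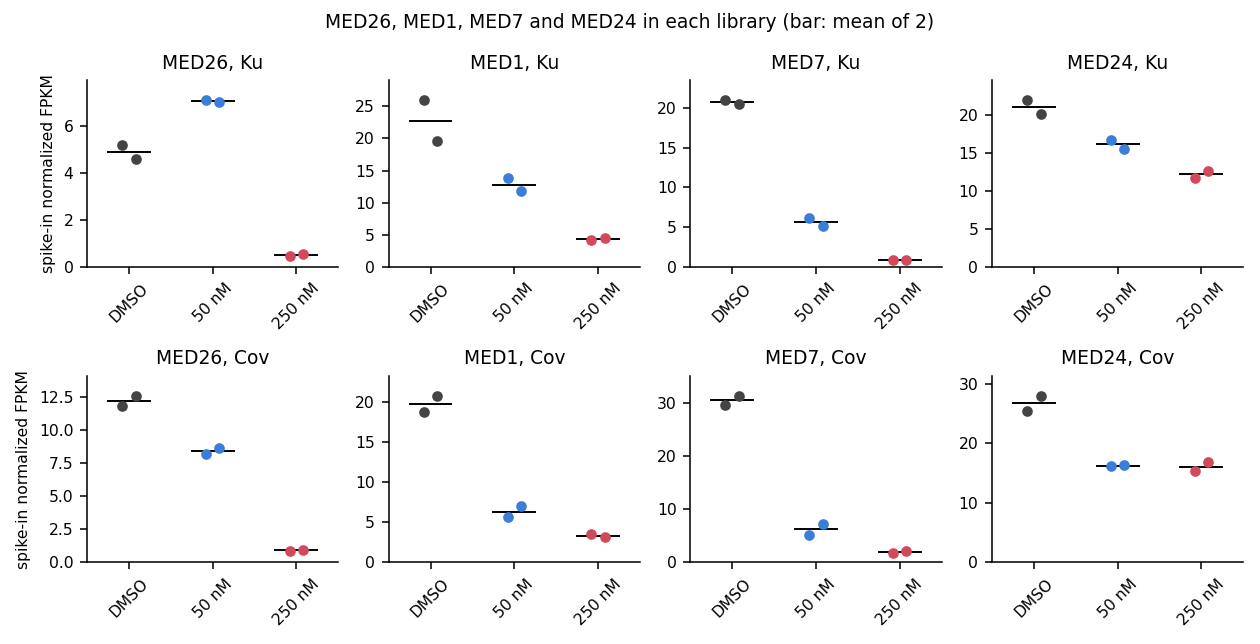
Spike-in normalized FPKM of MED26, MED1, MED7 and MED24 in each library, Ku above and Cov below, against DMSO, 50 nM and 250 nM THZ1, with 1 point per library and a bar at the mean of 2. At 50 nM MED26 lies above DMSO in Ku (7.07 and 6.99) and below it in Cov (8.17 and 8.68), where it turned positive under either rescaling, and MED24 at 250 nM lies below DMSO on this scale but turned positive under both rescalings.

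The tail module, where transcription factors dock, was the least lowered of the 4 modules by the share of RNA left, with a median of 36.2% in Ku and 32.6% in Cov at 250 nM. MED24, a tail subunit that meets MED23 and MED16, kept the most of all members. It was at 21.9 and 20.1 FPKM in DMSO, 16.7 and 15.6 at 50 nM, and 11.7 and 12.6 at 250 nM in Ku, and at 25.5 and 28.0, then 16.3 and 16.3, then 15.3 and 16.9 in Cov. In Cov the 50 nM and 250 nM libraries overlapped. At 250 nM MED24 changed by -0.74 (standard error 0.09, limma adjusted p = 0.00040) in Ku and -0.70 (0.09, adjusted p = 0.000215) in Cov, with 58.0% and 60.3% left. Under equal medians its change was 1.13 and 1.28 and under the median of ratios 0.64 and 0.84. The spike-in call of MED24 was lost whichever 1 of the 6 Ku libraries was left out (adjusted p from 0.0011 to 0.0051), and in Cov without DMSO replicate 2 (0.0025) or 250 nM replicate 1 (0.0018).

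Other tail subunits fell further. MED15, the target of sterol regulatory and other activators, was at 35.8 and 33.9 FPKM in DMSO, 19.3 and 19.6 at 50 nM, and 8.55 and 9.80 at 250 nM in Ku, and at 27.2 and 29.2, then 12.1 and 9.91, then 8.50 and 8.65 in Cov. MED23 was at 15.2 and 11.9, then 11.1 and 10.3, then 3.65 and 4.71 in Ku, and at 9.76 and 10.6, then 4.21 and 5.44, then 2.33 and 1.94 in Cov. MED29 was at 45.6 and 39.1, then 17.4 and 16.4, then 8.23 and 9.37 in Ku, and at 35.8 and 40.0, then 13.4 and 14.6, then 10.2 and 11.2 in Cov. All 3 fell at each step in both lines. MED29 changed most in Ku, by -2.14 (standard error 0.11, limma adjusted p = 1.5e-05), with -1.74 (0.10, adjusted p = 2.9e-06) in Cov. MED23 changed most in Cov, by -1.84 (0.14, limma adjusted p = 8.3e-06), with -1.49 (0.17, adjusted p = 0.00022) in Ku, where its call was lost without DMSO replicate 1 or 250 nM replicate 1 (0.0012 and 0.0018). MED15 changed by -1.82 (0.09, limma adjusted p = 1.4e-05) and -1.61 (0.11, adjusted p = 6.4e-06). Under equal medians MED15 turned positive in both lines, MED23 in Ku and MED29 in Cov.

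The make-up of the Mediator RNA pool changed with dose. The FPKM of the 32 members summed to 991 and 890 in DMSO, 686 and 636 at 50 nM, and 286 and 287 at 250 nM in Ku, and to 821 and 898, then 378 and 424, then 218 and 211 in Cov. As a percent of the FPKM of all genes these sums were 0.0803 and 0.0725, then 0.0671 and 0.0651, then 0.0431 and 0.0473 in Ku. In Cov they were 0.0557 and 0.0532, then 0.0359 and 0.0354, then 0.0287 and 0.0276. The pool thus fell at each step as a share of each library too, and such shares were not computed for other sets of genes. At 50 nM the median member kept 67.1% of its DMSO mean in Ku and 47.5% in Cov. The median active gene kept a like 70.0% and 49.1%, so the fall at 50 nM was not particular to the members. The tail made up 31.6% and 32.4% of the pool in DMSO and 40.8% and 41.0% at 250 nM in Ku, and 33.5% and 33.6% against 47.6% and 49.4% in Cov. The head went from 22.1% and 20.8% to 12.7% and 12.4% in Ku and from 27.2% and 26.9% to 17.0% and 16.8% in Cov. The kinase module held between 10.9% and 13.9% of the pool in every library. These shares do not change with the scaling of a library, but those of tail and head depend on where MED27 to MED30 are counted. Those genes are in the tail here and were its most abundant in DMSO. Their mean FPKM there was 38.4 to 49.3 in Ku and 37.9 to 54.6 in Cov. Shares with them in the head were not computed.

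**Figure D5:**
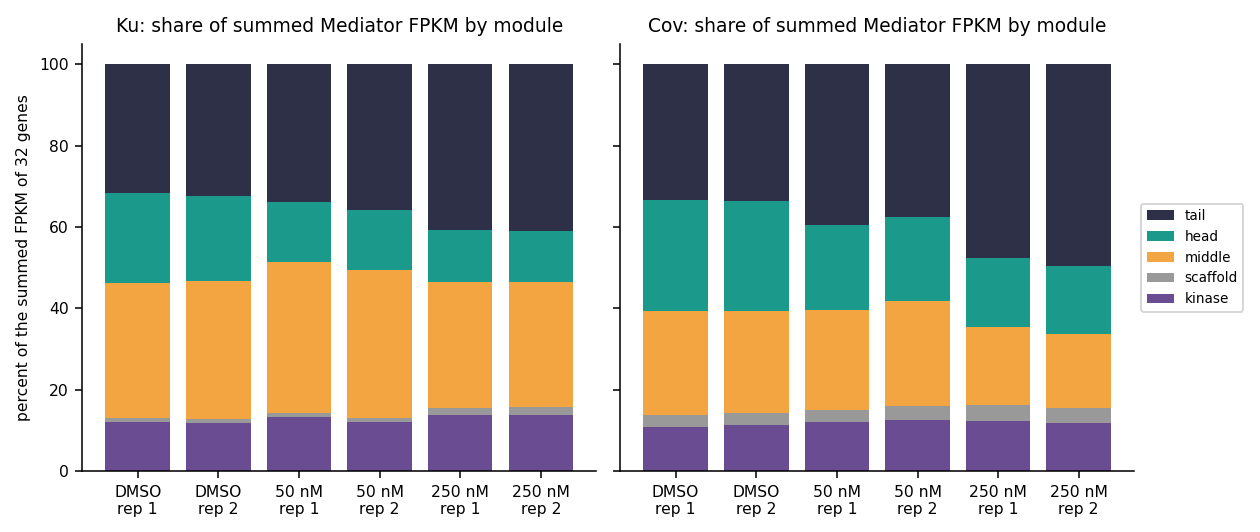
Share of the summed FPKM of the 32 members held by each module (percent, stacked from 0 to 100), with 1 bar per library and 2 libraries per condition. From DMSO to 250 nM the tail grows from 31.6% and 32.4% to 40.8% and 41.0% in Ku and from 33.5% and 33.6% to 47.6% and 49.4% in Cov, while the head shrinks. These shares are the same on all 3 scales. MED27 to MED30, which some models place in the head, are counted with the tail.

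At 50 nM fewer members passed the threshold than at 250 nM. In Ku 5 of 32 members were called lower by limma and none higher, where 11.3% of active genes were lower and 0.0842% higher. In 25 members both 50 nM libraries lay below both DMSO libraries, an order found for 75.8% of active genes. At an unadjusted p under 0.05 limma put 22 members lower, with 61% of active genes, and 1, MED26, higher, with 1.46% of active genes. Among the 5 were MED22 with a log2 fold change of -1.96 (adjusted p = 0.00034), MED7 with -1.699 (0.00041) and MED11 with -1.41 (0.00064). MED29 (-1.27, limma adjusted p = 0.00053) and MED8 (-1.31, 0.00035) completed them, and 3 of the 5 are head subunits. MED22, chosen after its values were seen, was at 34.9 and 28.5 FPKM in DMSO, 7.13 and 7.59 at 50 nM, and 3.01 and 3.44 at 250 nM. All 5 also were called lower in Cov. Whichever 1 of the 6 Ku libraries was left out, no member was called, at adjusted p from 0.0012 to 0.0046 for the 5, while 0.0421% to 0.919% of active genes were. All 5 had negative fold changes under both rescalings, but none was called under equal medians (limma adjusted p from 0.0011 to 0.0059, with 0.737% of active genes called lower) and MED22 alone under the median of ratios (limma adjusted p = 0.00069, with 2.72% of active genes called lower).

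In Cov 27 of 32 members were called lower at 50 nM and none higher, where 70.5% of active genes were lower and 0.0772% higher. Under both rescalings 0 members were called lower by limma, where 0.147% of active genes were under equal medians and 0.772% under the median of ratios. On the spike-in scale all 32 were lower and none higher at an unadjusted p under 0.05 by limma (91.5% and 0.4% of active genes were), and all 32 had both 50 nM libraries below both DMSO libraries, as did 95.7% of active genes. The 5 not called were CCNC, MED4, MED25, MED26 and MED28, and both 50 nM libraries of each lay below DMSO. Without DMSO replicate 2, 13 members and 30.3% of active genes were called. The member median was -0.51 in Ku and -0.98 in Cov, against -0.40 and -0.85 over active genes, and under equal medians it was 0.12 and 0.13. The difference between the lines was not tested, since each table has its own normalization.

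Between 50 nM and 250 nM a further step down was measured on the spike-in scale. In Ku 22 members were called lower, where 36% of active genes were, and in Cov 17, where 24.4% were, with 16 members called in both lines and none called higher by limma (0 at an unadjusted p under 0.05, where 0.309% and 1.6% of active genes were; 0.0421% and 0.0842% of active genes were called higher). Under equal medians 5 members in Ku were called lower and 3 higher, where 6.55% and 6.46% of active genes were, and 3 in Cov were called lower, where 4.95% were. Under the median of ratios 6 in Ku and 5 in Cov were called lower, where 11.1% and 7.92% of active genes were. With the replicate number as a block, 3 members in Cov and 7.93% of active genes were called lower. The count in Ku was 4 or 8 without one or the other 50 nM library and 4 or 3 without one or the other 250 nM library, with 5.55% to 11.2% of active genes called in those fits. In Cov the count was 10 and 11 without DMSO replicate 1 and 2, and 9 and 7 without 250 nM replicate 1 and 2, with 10.7% to 15.4% of active genes called. The median step was -1.16 in Ku (-0.62 over active genes) and -0.81 in Cov (-0.41), with 8 of 9 middle subunits called in each line and, of the 9 tail subunits, 6 called in Ku and 2 in Cov. The median under equal medians was 0.010 and -0.12. Over all 3 conditions 25 members in Ku and 31 in Cov fell without overlap at both steps, a pattern found for 66.7% and 73.8% of active genes. The exception in Cov was MED24.

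Genes that work with Mediator were described by a list of 16, made of the cohesin subunits and loaders, super elongation complex subunits, general transcription factors, POLR2A, FBXW7 (which targets MED13 for degradation) and MED12L. At 250 nM 15 of the 16 were called lower in each line, where 68.6% (Ku) and 84% (Cov) of active genes were, and none higher (0 higher at an unadjusted p under 0.05 by limma). The most lowered were TBP in Ku, at a log2 change of -2.37 (standard error 0.13, limma adjusted p = 1.8e-05), and GTF2B in Cov, with -3.12 (0.09, adjusted p = 8.2e-07), both factors that position the polymerase. MED12L, the paralog of MED12, was close to 1 FPKM in DMSO (1.14 and 1.10 in Ku, 0.703 and 0.772 in Cov) and was not called. At 50 nM none of the 16 was called lower in Ku by limma (6 were lower and 2 higher at an unadjusted p under 0.05, with 61% and 1.46% of active genes), against 11.3% of active genes, and 11 were in Cov, against 70.5%. POLR2A, the largest subunit of the polymerase, was called higher in Ku at 50 nM. It was at 132.6 and 118.4 FPKM in DMSO, 222.8 and 214.5 at 50 nM, and 61.8 and 70.2 at 250 nM there, with a log2 fold change at 50 nM of 0.80 (0.09, limma adjusted p = 0.00099). In Cov POLR2A was at 54.1 and 60.0, then 61.4 and 58.9, then 22.3 and 24.8, with overlap between DMSO and 50 nM. The call of POLR2A in Ku was lost whichever 1 of the 6 libraries was left out (adjusted p from 0.0021 to 0.0067) and without a minimum FPKM (0.0052), while its change stayed positive under both rescalings. TBP in Ku and GTF2B in Cov were called lower on all 3 scales. POLR2A is named because its value was seen.

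The members are spread over 14 chromosomes of GRCh37, and differ in gene structure. Their spans run from 2.2 kb (MED11) to 319.8 kb (MED13L). Across the 32 members the number of exons correlated with the log2 fold change at 250 nM with Spearman's rho of 0.417 in Ku and 0.404 in Cov, against 0.093 and 0.028 across 12019 protein-coding active genes. With span the values were 0.277 and 0.244, against 0.048 and -0.066 across 12075 genes. With mRNA length they were 0.077 and 0.159, against -0.145 and -0.19 across coding genes. With the length of the 3' untranslated region they were -0.257 and -0.263, against -0.143 and -0.199. Of these features only span was in the plan, and the number of exons gave the largest values. Genes are not independent replicates and share libraries, so these are descriptions. The members with 2 or 3 exons are MED7, MED9, MED18 and MED26, which kept at most 10.4% of their RNA at 250 nM, and MED11, which kept 29.3% and 25.8%. Members with more exons could keep as little. MED17, with 12 exons, kept 9.81% in Ku and 5.64% in Cov, and MED8, with 7 exons, kept 9.08% and 12.4%. Of the 32 genes, 4 (MED7, MED17, MED20 and MED26) share exon bases with another coding gene on the same strand and 7 on the other strand, and whether counting used strand is not given in the sources used here.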

How the data were processed

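RNA was measured by stranded mRNA sequencing in 12 libraries of KURAMOCHI and COV362 cells. Per the labels and the study's methods, the authors aligned reads with HiSat to hg19 and made the deposited FPKM with cuffquant and cuffnorm, rescaled to ERCC spike-ins, in a separate table for each line; tool versions and strand settings are not given in the sources used here. Here 92 ERCC rows were set aside, genes above 1 FPKM in at least 1 library were kept, and log2(FPKM + 1) of the 6 libraries of a line was fitted with limma 3.58.1 (R 4.3.3, empirical Bayes with trend, two-sided, Benjamini-Hochberg over 14251 genes). The study's count test needs counts and was not used. The pipeline was also run on simulated data with independent noise and set changes. That simulation did not copy the varied falls of these libraries, and no result here rests on it. Positions are from GENCODE v44 mapped to GRCh37. All kinase module genes and MED14 were named, with the genes of most and least negative change at 250 nM per line in each other module and in the partner list, MED12L, and MED1, MED15 and MED26 for their known roles. An item of the partner list is not reported here. The members, lists and rule were chosen with earlier results of these data known. Labels give biological replicates without saying how cultures were separated, so p-values measure the spread between these libraries.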

Additional observations from a re-analysis of the deposited data

Results flagged for a closer look

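For 4 of the 48 members and partner genes (8.33%) both 50 nM libraries lay above both DMSO libraries in Ku cells and below both in Cov cells on the spike-in scale, an order found for 2.65% of active genes, and the difference between the lines was not tested. The log2 fold changes at 50 nM in Ku and Cov cells were 0.45 and -0.49 for MED26, 0.20 and -0.75 for ELL2, 0.29 and -0.55 for FBXW7, and 0.52 and -0.38 for GTF2B. All 4 turned positive in Cov cells under equal medians (0.60, 0.33, 0.54 and 0.79, in that order) and under the median of ratios (0.44, 0.16, 0.38 and 0.61), so the opposite directions rest on the spike-in scale.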

How the results depend on the processing

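At 250 nM, under equal medians (median of ratios), 7 (10) members were lower and 4 (1) higher in Ku cells with a median of 0.19 (-0.32), and 7 (11) lower and 4 (1) higher in Cov cells with -0.046 (-0.48). At 50 nM, 0 (1) were lower in Ku cells with 0.12 (-0.0089) and 0 (0) in Cov cells with 0.13 (-0.043), and from 50 to 250 nM 5 (6) were lower and 3 higher under equal medians in Ku cells with 0.010 (-0.35), and 3 (5) lower in Cov cells with -0.12 (-0.34). In Ku cells at 50 nM the count was 0 without a minimum FPKM (0.0127% of the genes tested were called lower), 0 in a fit of only the groups compared (0.0632%) and 15 at adjusted p under 0.05 (40.2%). In Cov cells at 50 nM it was 16 beyond a log2 fold change of 1 (35.5%). From 50 to 250 nM it was 8 for Ku (8.05%) and 11 for Cov (9%) without a minimum, and a pseudocount of 0.1 gave medians of -1.26 and -0.97, and of -2.11 at 250 nM in Cov cells. Replicate numbers did not pair the samples (correlations of deviations from -0.0703 to 0.0282), and with the replicate block 3 members were called in Cov cells from 50 to 250 nM. Leaving out 1 library gave 23 to 30 lower at 250 nM, 0 at 50 nM and 3 to 22 between doses in Ku cells (42.7% to 63.5%, 0.0421% to 0.919% and 5.55% to 32.3% of active genes), with medians of -1.77 to -1.57, -0.62 to -0.39 and -1.17 to -1.14. In Cov cells it gave 30 to 32, 13 to 29 and 7 to 21 (73.3% to 86.6%, 30.3% to 69.7% and 10.7% to 27.9%), with -1.93 to -1.86, -1.05 to -0.88 and -0.89 to -0.74. Under equal medians (median of ratios), negative fold changes at 250 nM numbered 12 (24) of 32 members for Ku and 17 (25) for Cov, against 12 (16) for Ku and 11 (19) for Cov at 50 nM. Among the genes named with a fold change, those that turned positive at 250 nM under equal medians were, in Ku cells, MED12 0.44, MED13L 0.20, CDK19 0.53, CCNC 0.76, MED14 0.94, MED6 0.43, MED4 0.74, MED24 1.13, MED11 0.21, MED21 0.17, MED23 0.25 and MED15 0.051, and in Cov cells MED12 0.43, MED13L 0.10, CDK19 0.48, CCNC 0.63, MED14 0.35, MED29 0.23, MED24 1.28, MED11 0.11, MED21 0.049 and MED15 0.34, with medians of 0.32 and 0.27 for the kinase module and 0.47 and 0.41 for the tail. Under the median of ratios the named genes that turned positive were CDK19 0.096, CCNC 0.24, MED14 0.48, MED4 0.24 and MED24 0.64 in Ku cells and MED12 0.032, CDK19 0.15, CCNC 0.19 and MED24 0.84 in Cov cells. At 50 nM the named genes were MED13 0.10 and CDK8 0.49 (0.36) in Ku cells, and MED13L 0.29 (0.13), CDK8 0.22 (0.056), CDK19 0.080 and MED26 0.60 (0.44) in Cov cells. In Ku cells at 50 nM CDK8 was 0.027 without DMSO replicate 1, and MED13L -0.11 without DMSO replicate 2, -0.12 without 50 nM replicate 1 and 0.14 without 50 nM replicate 2. With 2 libraries per group and no read counts, small differences were not detectable, and the cause of other changes was not tested. The count of MED27 to MED30 with the head, the module medians and the alternatives for partner and flagged genes were chosen after seeing the data.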
